A study of Mus musculus with 2 samples.

Results

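The triglyceride assembly enzymes are the acyltransferases and phosphatases that build triglyceride from glycerol 3-phosphate or monoacylglycerol. They were chosen by name. Each was found as 1 row of the deposited table whose gene column held its symbol and whose status was not HIDATA. Loci with that mark were left out. All 10 listed genes were found, among 33224 genes with a symbol. The members were Gpam, Agpat6, Agpat2, Agpat3, Lpin1, Lpin2, Lpin3, Dgat1, Dgat2 and Mogat1. The libraries came from regenerating livers of male C57BL/6 mice collected 48 hr after partial hepatectomy (PH), a time that the study's text gives and the sample labels do not. There was 1 library from wild-type mice (WT) and 1 from PPARβ-null mice (KO), for which no restriction to a tissue is stated. The labels gave an age of 4 months for each, while the series text names a younger age and the methods a range around it, and mice of both genotypes had food at all times. The sources used here do not say how many mice stood behind each library, nor how the null allele was built. The table names a different sequencing lane for each library, so that lane, mouse and genotype cannot be told apart.

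As background, a liver cell makes triglyceride mainly by the glycerol phosphate pathway. Glycerol-3-phosphate acyltransferases (GPATs) add the first fatty acid, and lysophosphatidate acyltransferases (AGPATs) add the next to give phosphatidate. Lipins remove the phosphate to give diacylglycerol, and diacylglycerol acyltransferases (DGATs) add the last fatty acid. A monoacylglycerol acyltransferase (MGAT) can make diacylglycerol by a separate route, which is best known from the intestine. Hepatocytes store triglyceride for a time while the liver regenerates, and they also export it in very-low-density lipoprotein (VLDL).

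The bases that encode a catalytic motif are shown for 9 members. Each was searched only for the pattern assigned to its family, so the matches do not sort the members. Dgat1 was not searched for a motif and is not shown. The coding sequences are those of the longest complete protein of each gene in GENCODE vM1, on the build NCBIM37 that the files use. For the acyltransferases of the first and middle steps the capitals mark the 18 bases of the pattern histidine, any 4 residues, aspartate. Gpam had 2 matches to this pattern, and the first is shown.
Gpam: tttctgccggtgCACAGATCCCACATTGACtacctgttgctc
Agpat6: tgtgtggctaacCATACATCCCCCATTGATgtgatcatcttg
Agpat2: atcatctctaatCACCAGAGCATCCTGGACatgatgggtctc
Agpat3: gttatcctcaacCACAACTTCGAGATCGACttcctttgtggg

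The lipins share another motif, in which aspartate, aspartate and threonine alternate with any residue. The capitals mark its 15 bases, at residues 712 to 716 of Lpin1, 724 to 728 of Lpin2 and 651 to 655 of Lpin3.
Lpin1: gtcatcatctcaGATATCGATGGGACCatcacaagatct
Lpin2: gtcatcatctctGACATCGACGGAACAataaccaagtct
Lpin3: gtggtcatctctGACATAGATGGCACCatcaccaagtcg

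Dgat2 and Mogat1 belong to the same protein family, to which Dgat1 does not belong. The capitals mark the 12 bases that encode histidine, proline, histidine and glycine, at residues 161 to 164 of Dgat2 and 109 to 112 of Mogat1.
Dgat2: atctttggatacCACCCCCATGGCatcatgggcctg
Mogat1: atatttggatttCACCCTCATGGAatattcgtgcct

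In a global alignment of the translated coding sequences, 46.3% of the aligned residues were identical between Dgat2 and Mogat1. The lipins were identical at 51.8% to 55.9% of aligned residues. Identity was 25.5% between Gpam and Agpat6 and 23.0% between Agpat2 and Agpat3, the pairs of the GPAT and AGPAT steps. Dgat1, of another family, had 24.12% with Dgat2 and 30.15% with Mogat1, so identities this low do not mark a shared family.

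Levels are given in FPKM, the fragments counted per length of transcript and per sequenced total that the authors estimated for each locus and library. They are scaled to length, so that genes can be compared per length. With 1 library per genotype there were no replicates, no value carries an error between mice, and no test of the genotypes was possible. Among 2425 single-exon loci, low values piled up near whole fragments. The loci near 1 fragment, 82 in WT and 75 in KO, gave an estimate of depth. For 1 kb of transcript, a lone fragment equalled about 0.0188 FPKM in WT and 0.0181 FPKM in KO. From these numbers and the longest annotated transcript, the fragments behind each value were estimated. The 95% intervals of ratios below are exact binomial intervals on those fragments and cover counting error only. Ppard, the targeted gene, had 2.67 FPKM in WT and 2.42 FPKM in KO, so the level of the whole locus did not separate the libraries.

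Gpam and Dgat1 were lower in KO by more than 1.5-fold, Mogat1 was higher, and the other 7 members lay within that range. Genes whose FPKM averaged at least 1 over both libraries are called expressed here, 11723 in all, and an expressed gene counted as past the threshold when its FPKM differed by more than 1.5-fold. The 2 members that were lower stood beside 19.9% of all expressed genes, a share near their own 20%. The 1 that was higher stood beside 4.20%, but it was Mogat1, which reached the filter only through its KO value, so nothing is read from that count. Without a threshold, 6 members were lower and 4 higher in KO. The median log2 KO/WT of the members, with a pseudocount of 0.1 FPKM, was -0.14, against -0.24 over all expressed genes. Of those genes 75.6% were lower in KO. Scaling the KO library so that this median became 0 turned the count of members to 4 lower and 6 higher. Past the threshold, 12.1% of expressed genes were then lower and 7.40% higher, and Dgat1 was no longer among them. The study drew Gpam, Agpat3 and Dgat1 in its scheme of triglyceride synthesis and marked Gpam and Dgat1 there. Its caption says that marked genes were found by RNA-sequencing and borne out by quantitative PCR. The RNA-sequencing was of these same libraries, so the differences given here are not independent evidence. The quantitative PCR values are not part of these data.

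**Figure D1:**
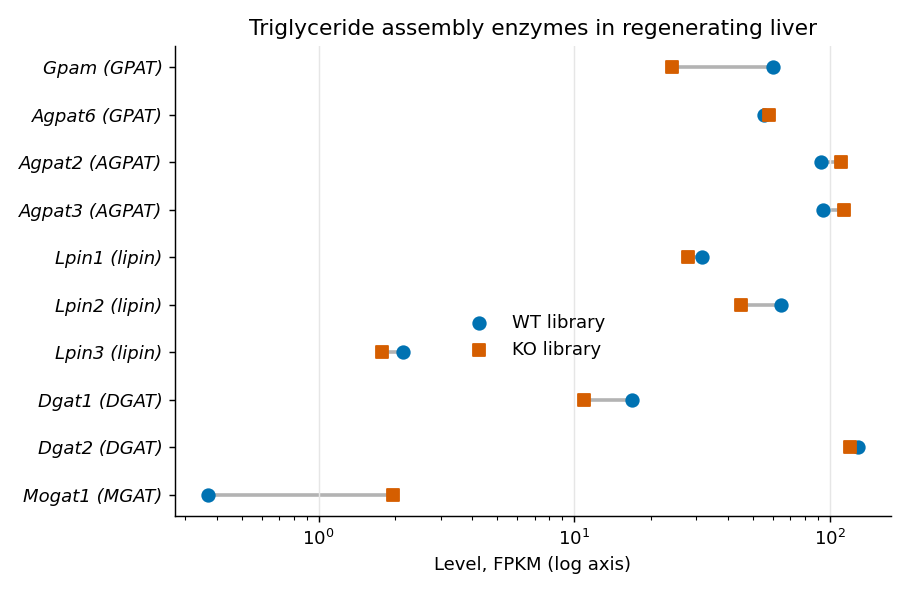
The level of each member in FPKM on a log axis, with a circle for the WT library and a square for the KO library (1 library each, no error between mice). Dgat2 was the highest member in each library, at 129 FPKM in WT and 120.4 FPKM in KO, and the gap between the symbols is widest for Gpam and Mogat1.

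The order of the levels ran from Dgat2 down to Mogat1 in WT. Dgat2, Agpat3 and Agpat2 held the first 3 places in each library. Gpam stood at place 5 in WT and place 7 in KO, and Agpat6 moved from place 6 to place 4. Lpin3 and Mogat1 took the last places in each library, Mogat1 below Lpin3 in WT and above it in KO. With no spread between mice it cannot be said which neighbours in this order differ.

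The first step showed the largest difference among the abundant members. Gpam encodes a mitochondrial GPAT and lies on chromosome 19 (NCBIM37, minus strand, 55142142 to 55201824). Its level was 59.8 FPKM in WT and 24.0 FPKM in KO, about 19844 and 8257 fragments. The WT/KO ratio was 2.49 (95% interval 2.43 to 2.55), and 5.20% of all expressed genes had a lower log2 KO/WT. Agpat6, also named Gpat4, encodes a GPAT of the endoplasmic reticulum and lies on chromosome 8 (minus strand, 24283418 to 24318925). Its level was 55.1 FPKM in WT and 58.0 FPKM in KO, a KO/WT ratio of 1.05 (95% interval 1.03 to 1.08). Gpam and Agpat6 were thus near each other in WT and apart in KO. The ratio of Gpam to Agpat6 within a library, which no scaling of the libraries can change, was 1.09 in WT and 0.414 in KO. Gpam made up 52.1% of the summed FPKM of Gpam and Agpat6 in WT and 29.3% in KO. This sum leaves out the GPATs Agpat9 and Gpat2, which are not members. The sum itself went from 115 FPKM to 82.0 FPKM.

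The promoter windows of Gpam and Mogat1 are shown because these members had the largest differences in either direction. They are the 250 bases before the start sites that RefSeq lists on GRCm38.p6, a later build than that of the files. Capitals mark matches, on either strand, to TCACNCCAC (the core of the sterol response element), CACGTG (the E-box), CCAAT (the CCAAT box) or AGGTCA (the nuclear receptor half-site).
Gpam, chr19:55127239-55127488, minus strand: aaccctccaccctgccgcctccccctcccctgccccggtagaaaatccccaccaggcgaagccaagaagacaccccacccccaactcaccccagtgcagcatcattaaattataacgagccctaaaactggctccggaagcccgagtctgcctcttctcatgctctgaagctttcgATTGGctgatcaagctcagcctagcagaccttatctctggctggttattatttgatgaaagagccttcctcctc
Gpam, chr19:55099478-55099727, minus strand: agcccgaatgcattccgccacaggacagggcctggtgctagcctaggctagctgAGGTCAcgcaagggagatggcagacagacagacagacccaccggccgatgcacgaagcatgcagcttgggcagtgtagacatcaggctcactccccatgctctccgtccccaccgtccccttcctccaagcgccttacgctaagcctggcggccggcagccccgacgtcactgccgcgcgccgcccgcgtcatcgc
Mogat1, chr1:78510810-78511059, plus strand: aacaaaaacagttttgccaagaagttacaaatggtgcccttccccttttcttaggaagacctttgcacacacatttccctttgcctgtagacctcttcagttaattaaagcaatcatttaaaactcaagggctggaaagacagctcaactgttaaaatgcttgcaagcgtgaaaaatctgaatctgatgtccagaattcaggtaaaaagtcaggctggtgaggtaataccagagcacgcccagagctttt

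One Gpam window held a CCAAT box 74 bases before the start, and the other held a half-site 196 bases before it. The Mogat1 window held none of these letters. Of 32851 windows of the same length in the RefSeq table, 1.05% held the sterol response element core, 6.02% the E-box, 33.8% the CCAAT box and 14% the half-site. The table listed 7 of the 10 members with 11 start sites, not Agpat6, Dgat1 or Dgat2. Outside Gpam, a half-site lay 74 bases before the start of Lpin1, and Lpin2 held an E-box at 1 start site and 3 CCAAT boxes at another. A match is a description of letters in a window, and binding was not measured.

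The members of the AGPAT step were each higher in KO, by nearly the same factor. Agpat2 encodes the isoform that is needed for adipose tissue and lies on chromosome 2 (minus strand, 26448577 to 26459937). Its level was 92.2 FPKM in WT and 111 FPKM in KO, a KO/WT ratio of 1.20 (95% interval 1.17 to 1.24). Agpat3 lies on chromosome 10 (minus strand, 77731923 to 77815234), with 94.4 FPKM in WT and 113 FPKM in KO and a ratio of 1.20 (95% interval 1.18 to 1.22). The ratio of Agpat2 to Agpat3 was 0.977 in WT and 0.980 in KO, the least change among the pairs within a step. In log2 KO/WT, 9.20% of all expressed genes lay above Agpat2 and 9.32% above Agpat3. Each stayed higher in KO under every scaling tried. Agpat2 shares 64 exon bases with Egfl7 on the other strand, and counting by strand is not stated, so fragments there can belong to either gene. Egfl7 had 11.4 FPKM in WT and 10.5 FPKM in KO. The assembled locus of Agpat2 reached beyond the gene, down to position 26435534, and that of Agpat3 down to position 77711617.

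**Figure D2:**
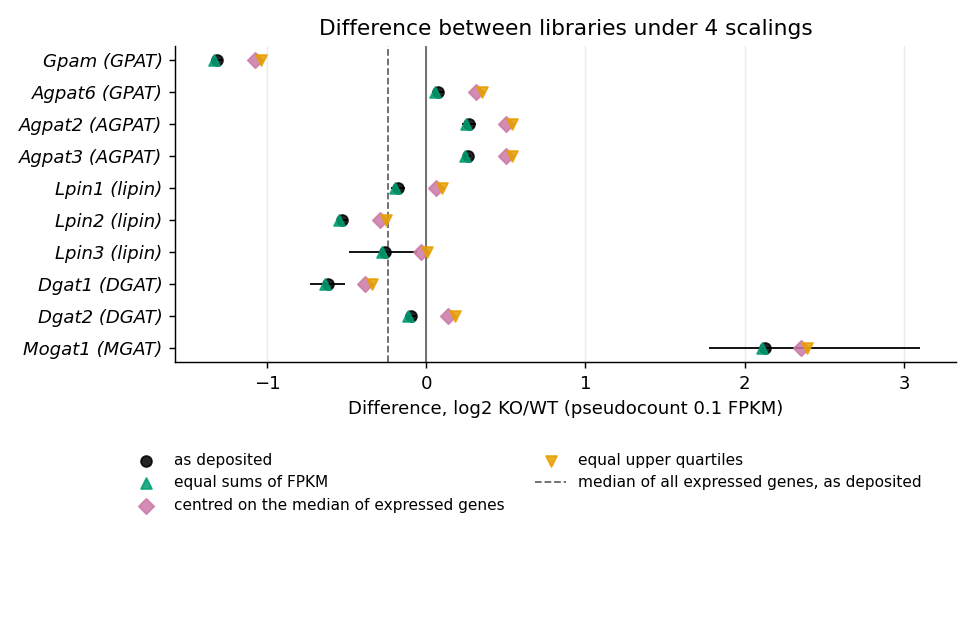
The log2 KO/WT of each member with a pseudocount of 0.1 FPKM under 4 scalings of the libraries. Black lines are the 95% counting intervals of the deposited ratio without a pseudocount, and the dashed line is the median of all expressed genes (-0.24). Gpam, Dgat1 and Lpin2 lie below 0, and Agpat2, Agpat3, Agpat6 and Mogat1 above 0, under each scaling.

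The lipins were all lower in KO as deposited, and none of the 3 passed the threshold. Lipins are phosphatidate phosphatases, and Lpin1 also acts as a coactivator of transcription with PPARα in liver. Lpin2, the most abundant in liver, lies on chromosome 17 (plus strand, 71531900 to 71599157). Its level was 64.5 FPKM in WT and 44.7 FPKM in KO, and WT/KO was 1.44 (95% interval 1.41 to 1.47). It was the member just short of the threshold, and Dgat1 was the one just past it. With the median in place of the longest transcript length, about 4371 and 3140 fragments stood behind the Lpin2 values and its interval widened to 1.38 to 1.51, which includes the threshold. The assembled locus of Lpin2 reached well beyond the gene, from position 71223692 to 71824683. Lpin1 lies on chromosome 12 (minus strand, 16542475 to 16596576), with 31.6 FPKM in WT and 27.9 FPKM in KO, and WT/KO was 1.13 (95% interval 1.10 to 1.16). Lpin3 lies on chromosome 2 (plus strand, 160706406 to 160731738), in an assembled locus that began at 160557025, with 2.14 FPKM in WT and 1.77 FPKM in KO. About 395 and 339 fragments stood behind these values, and the WT/KO ratio was 1.21 (95% interval 1.04 to 1.40). Lpin2 held 65.7% of the summed lipin FPKM in WT and 60.1% in KO, Lpin1 32.1% and 37.5%, and Lpin3 2.18% and 2.38%. The ratio of Lpin1 to Lpin2 was 0.489 in WT and 0.624 in KO. Only Lpin2 stayed lower in KO under every scaling, at a log2 KO/WT of -0.25 with equal upper quartiles. Lpin1 turned to 0.06 after centring on the median of all expressed genes and to 0.10 with equal upper quartiles, and Lpin3 to 0.0031 with equal upper quartiles.

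At the last step, Dgat1 was lower in KO and Dgat2 differed little. Dgat1 encodes a multispanning enzyme of the endoplasmic reticulum that is related to sterol acyltransferases, and lies on chromosome 15 (minus strand, 76332445 to 76342381). Its level was 16.8 FPKM in WT and 10.9 FPKM in KO, about 1694 and 1141 fragments. The WT/KO ratio was 1.54 (95% interval 1.43 to 1.66), so the interval includes the threshold, and 17.8% of all expressed genes had a lower log2 KO/WT. Dgat2 encodes the enzyme tied to newly made fatty acids in liver and lies on chromosome 7 (minus strand, 106302173 to 106331223). Its level was 129 FPKM in WT and 120.4 FPKM in KO, and WT/KO was 1.07 (95% interval 1.05 to 1.09). Its direction turned to 0.14 in log2 KO/WT after centring and to 0.18 with equal upper quartiles. Dgat2 held 88.4% of the summed FPKM of the step in WT and 91.7% in KO. Dgat1 was 0.131 of the level of Dgat2 in WT and 0.0909 in KO. The sum of the step was 146 FPKM in WT and 131 FPKM in KO.

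**Figure D3:**
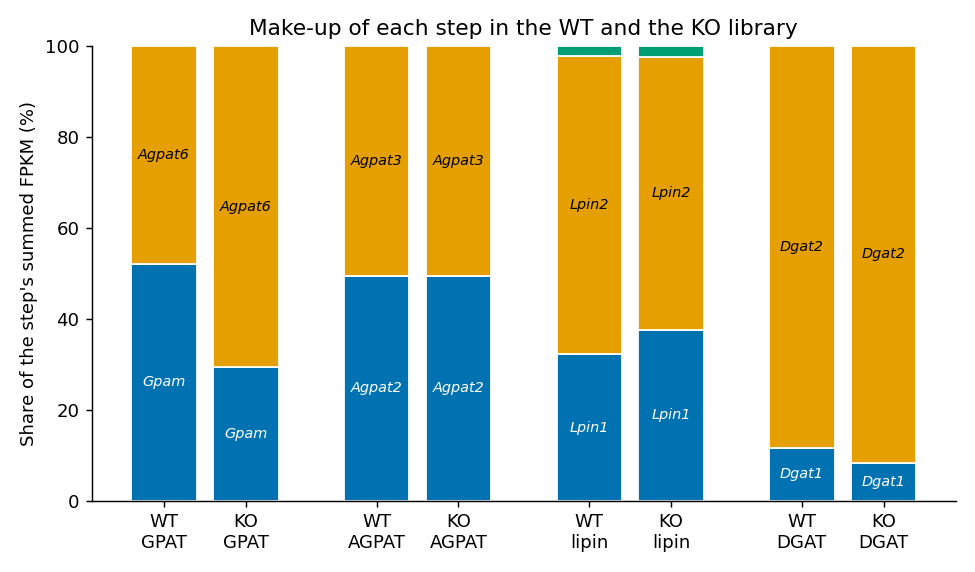
The share of each member in the summed FPKM of the members of its step, in percent, for the WT and the KO library. Green is Lpin3, at 2.18% and 2.38%. The GPAT bars differ most, with Gpam at 52.1% in WT and 29.3% in KO, while the AGPAT bars are near equal at 49.4% and 49.5% Agpat2.

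Mogat1, the MGAT, showed the largest fold of all members, and its level was the lowest in WT and the next to lowest in KO. The gene lies on chromosome 1 (plus strand, 78507566 to 78534748), and the enzyme acylates monoacylglycerol. Its level was 0.369 FPKM in WT and 1.95 FPKM in KO, about 24.1 and 132 fragments. The KO/WT ratio was 5.28 (95% interval 3.42 to 8.58). Mogat1 reached a mean FPKM of 1 through its KO value alone, so nothing is read from its rank among expressed genes. With at least 1 FPKM required in each library it was left out, and no member then counted as higher in KO. Even in KO, Mogat1 had 0.0162 of the level of Dgat2, against 0.00286 in WT. It shares 108 exon bases with BC035947 on the other strand, a gene with 0.0090 FPKM in WT and 0.0126 FPKM in KO. The assembled locus of Mogat1 reached beyond the gene, beginning at position 78494381.

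**Figure D4:**
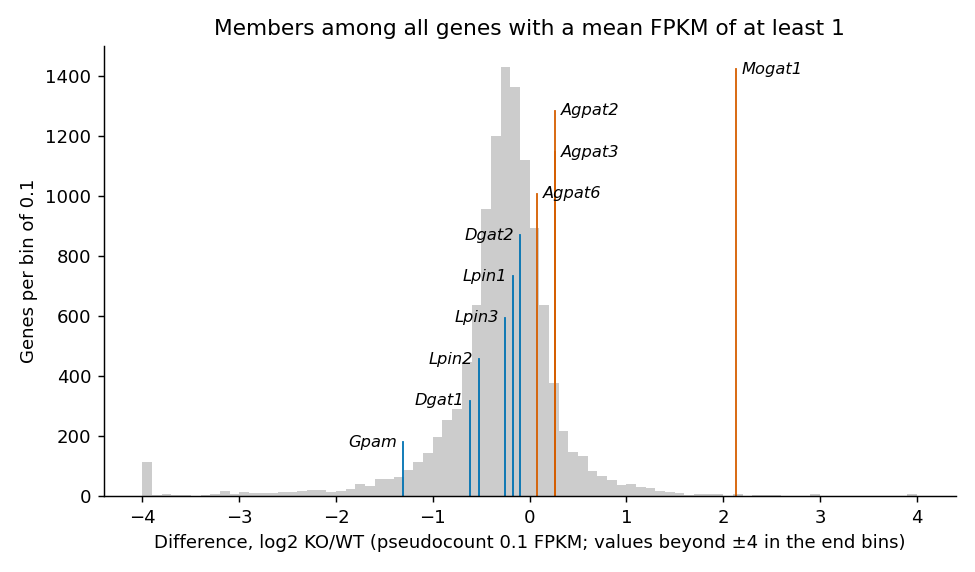
Grey bars count the 11723 expressed genes by their log2 KO/WT, in bins of 0.1. Lines mark the members, blue where lower and orange where higher in KO, with heights set only to separate the names. Gpam lies at -1.31 and Mogat1 at 2.13, and the other members lie between -0.62 and 0.27. Mogat1 is among the expressed genes only through its KO value, so nothing is read from its place.

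Enzymes of the same steps outside the members were mostly low. Of the 8 other glycerolipid acyltransferases, 4 were expressed, and of these Agpat5 was lower and Agpat9 higher in KO by more than 1.5-fold. Of all expressed genes, 19.9% were lower and 4.20% higher past that threshold. With the median of all expressed genes set to 0, Agpat5 no longer passed. Agpat9, also named Gpat3, encodes a GPAT best known from fat tissue. It had 2.23 FPKM in WT and 4.75 FPKM in KO, a KO/WT ratio of 2.13 (95% interval 1.88 to 2.42). Relative to Gpam, Agpat9 was at 0.0372 in WT and 0.198 in KO. Agpat5 had 3.75 FPKM in WT and 2.32 FPKM in KO, and WT/KO was 1.62 (95% interval 1.51 to 1.73). Lclat1, a cardiolipin acyltransferase, had 18.5 FPKM in WT and 14.0 FPKM in KO, and Agpat1 had 5.27 FPKM and 4.27 FPKM. The others were below 1 FPKM in each library. Mogat2, the intestinal MGAT, had 0.583 FPKM in WT and 0.0349 FPKM in KO, about 55.4 and 3.43 fragments, the opposite direction to Mogat1. Its WT/KO ratio was 16.7 (95% interval 6.17 to 94.9). Gpat2 had 0.580 FPKM in WT and 0.264 FPKM in KO, Agpat4 0.611 FPKM and 0.526 FPKM, and Dgat2l6 was listed at 0 in WT and had 0.0118 FPKM in KO.

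Among genes that supply glycerol 3-phosphate, 1 was higher and 1 lower in KO by more than 1.5-fold, out of 7 in the list and 5 expressed. These counts turned on the scaling, and with the median of all expressed genes set to 0 they became 4 higher and 0 lower. Of all expressed genes, 4.20% were higher and 19.9% lower as deposited, and 7.40% and 12.1% after that scaling. Gpd1, the cytosolic glycerol-3-phosphate dehydrogenase, had 100.3 FPKM in WT and 160.3 FPKM in KO, a KO/WT ratio of 1.60. Aqp9, the glycerol channel of hepatocytes, had 133 FPKM in WT and 186 FPKM in KO. Gyk, the glycerol kinase, had 29.3 FPKM in WT and 40.2 FPKM in KO. Gpd1l had 6.52 FPKM in WT and 4.28 FPKM in KO, a WT/KO ratio of 1.52, and Gpd2, the mitochondrial glycerol-3-phosphate dehydrogenase, had 5.71 FPKM and 7.89 FPKM. Over the 5 expressed genes the median log2 KO/WT was 0.46.

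Among 18 regulators of these genes, 17 were expressed, of which 4 (23.5%) were lower and 1 (5.88%) higher in KO by more than 1.5-fold, shares near those of all expressed genes (19.9% and 4.20%). With the median of all expressed genes set to 0, only 2 of the 4 still passed. Srebf1 encodes the sterol regulatory element-binding protein that activates Gpam and other lipogenic genes. It had 46.6 FPKM in WT and 9.21 FPKM in KO, and its WT/KO ratio of 5.06 was above that of each member. Insig1, which holds these proteins in the endoplasmic reticulum, had 205 FPKM in WT and 31.3 FPKM in KO. Its relative Insig2 had 116 FPKM in WT and 368 FPKM in KO. The other 2 that were lower, Mlxipl and Usf1, were named after their values were seen, with WT/KO ratios of 1.58 and 1.56, and the row of Usf1 is shared with Tstd1. Ctdnep1, a phosphatase that activates lipins, had 178 FPKM in WT and 205 FPKM in KO in a row shared with Gabarap. The median log2 KO/WT of the 17 regulators was -0.30. The part of any regulator, Srebf1 included, in the values of Gpam and the other members was not tested.

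**Figure D5:**
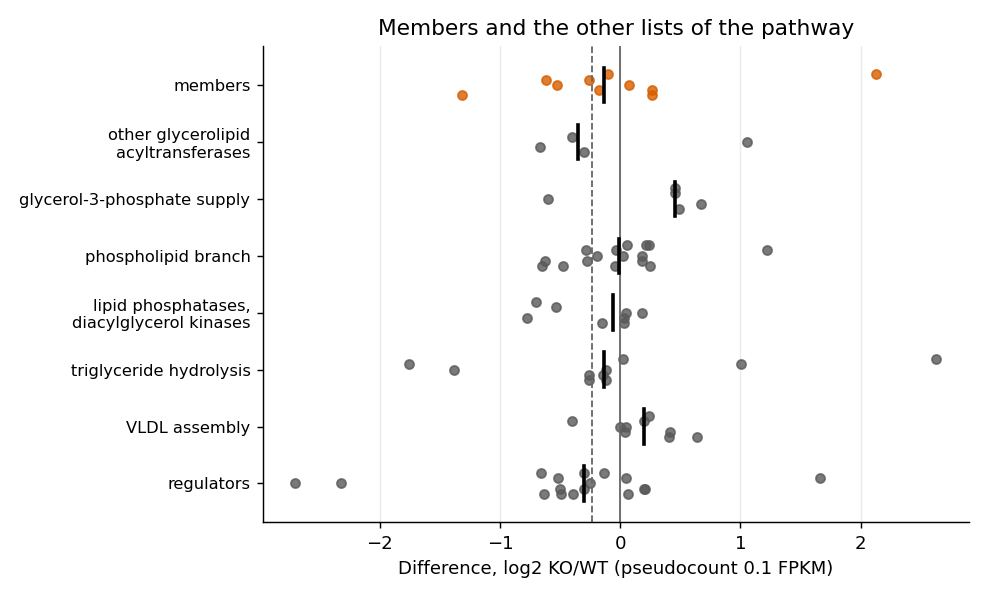
Points are the expressed genes of each list, placed by log2 KO/WT with a pseudocount of 0.1 FPKM, and black bars are list medians. The dashed line is the median of all expressed genes (-0.24). The members' median (-0.14) lies between that line and 0, while the medians of glycerol 3-phosphate supply (0.46) and VLDL assembly (0.20) lie above 0.

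Other features of the libraries moved with these differences, and their part in the members' values was not tested. The livers expressed hepatocyte genes, and the summed FPKM of the 6 hepatocyte markers with an estimate was 14093 in WT and 14130 in KO, while Alb was marked HIDATA. Behind this sum Cps1 alone passed the threshold, with 1597 FPKM in WT and 743 FPKM in KO, and Ahsg and Apoa1 were higher in KO. Many markers of other liver cells were lower in KO past the threshold, as were 19.9% of all expressed genes, and in bulk tissue fewer cells of a type and less RNA per cell cannot be told apart. Past the threshold lay 6 of 7 macrophage markers, with a sum of 59.7 FPKM in WT and 37.3 FPKM in KO, and Marco had 6.58 FPKM and 7.37 FPKM. The same held for 5 of 6 endothelial markers, with sums of 28.4 FPKM and 17.5 FPKM (Tek had 1.80 FPKM and 1.81 FPKM), and for 3 of 6 stellate cell markers, with 30.7 FPKM and 14.3 FPKM. Of 6 neutrophil markers, 3 were lower past the threshold and 3 had a mean below 1 FPKM, with sums of 14.7 FPKM and 7.78 FPKM. The 6 cholangiocyte markers summed to 29.8 FPKM in WT and 25.7 FPKM in KO, and of the 3 expressed only Krt19 passed. With the median of all expressed genes set to 0, 4 macrophage, 3 endothelial, 2 stellate cell and 2 neutrophil markers still passed, and Krt19 did as well. Of the 8 adipocyte genes, Adipoq, Lep, Plin1 and Retn were at most 0.0791 FPKM in WT and listed at 0 in KO, and Cfd had 0.312 FPKM in WT and was listed at 0 in KO. Fabp4 had 18.1 FPKM in WT and 17.4 FPKM in KO, and Cidec, a lipid droplet protein, 3.08 FPKM and 7.84 FPKM. All 8 summed to 406 FPKM in WT and 65.7 FPKM in KO, of which Car3, which hepatocytes also express, gave 384 FPKM and 40.5 FPKM. The 4 skeletal muscle markers with a row summed to 0.0463 FPKM in WT and 0 in KO. Fasting genes and clock genes also differed. Of 8 expressed fasting genes, 6 were higher in KO past the threshold and 1, Tat, was lower, with 1115 FPKM in WT and 595 FPKM in KO. Of 8 evening clock genes 6 were lower, and of 4 morning clock genes 2 were higher. Of all expressed genes 4.20% were higher and 19.9% lower. The time of day of collection is not given in the sources used here, so it cannot be told apart from genotype.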

How the data were processed

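Hepatic RNA was sequenced as 1 library per genotype on an Illumina HiSeq 2000, after preparation with a TruSeq RNA kit. The methods describe single end reads and the labels paired end reads. According to the methods and the submitters' processing notes, the authors aligned reads with TopHat 2.0.0 to NCBI37 (mm9), assembled transcripts with Cufflinks 1.3.0 and used Cuffdiff. The FPKM values deposited by the authors are estimates per locus, and whether they were quartile normalized is not stated. The deposited fold changes, statistics, p-values and q-values of the authors' own comparison of the libraries were not used.

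Of 38016 loci, 21 marked HIDATA were left out. Rows of a symbol were summed, and a row with several symbols gave its value to each. Log2 ratios used a pseudocount of 0.1 FPKM, which understates differences of low genes, while folds and counts past 1.5-fold used FPKM as deposited. Coordinates are those of GENCODE vM1, counted from 1. Depth was estimated from single-exon loci of at least 800 nt as the mode of FPKM times length, about 53.3 fragments per kb and FPKM in WT and 55.2 in KO, and checked on simulated libraries. Longer or shorter isoforms change the estimated fragments. Computation used pandas 2.3.3 and numpy 2.4.6, with scipy 1.17.1 for intervals, Biopython 1.88 for alignments and matplotlib 3.10.9 for plots, under Python 3.11.15. No test was run, since there are no replicates. The members and lists were chosen with earlier results of these data known. Genes named were all members, all other acyltransferases, and from each further pathway list the 2 with the highest mean FPKM and the 2 lowest and 2 highest log2 KO/WT with a mean FPKM of at least 1, of which not every one is described. Proteins were translated from the coding sequences, and no separate protein sequences were used. Alternatives covered scaling, rows per symbol, pseudocount, fold, filter and transcript length. Counts of marker genes under other scalings and intervals with the median transcript length were added after seeing the data.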

Additional observations from a re-analysis of the deposited data

How the results depend on the processing

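The count of 2 members lower in KO fell to 1, Gpam alone, with a 2-fold threshold, with the median of all expressed genes set to 0, with equal upper quartiles and with a pseudocount of 1 FPKM. The count of 1 member higher in KO became 0 with at least 1 FPKM required in each library. The other alternatives left each count as it was. The median log2 KO/WT of the members was -0.14 and ranged from -0.16 with equal sums of FPKM to 0.14 with equal upper quartiles, with 0.10 after centring. Gpam stayed lower in KO in each of these, at -1.04 with equal upper quartiles, and Mogat1 stayed higher, at 1.11 with a pseudocount of 1 FPKM. The median annotated transcript length lowered the estimated fragments of 4 members by over 1.5 times, in WT from 30105 to 6625 for Agpat3, from 19396 to 4371 for Lpin2, from 1694 to 603 for Dgat1 and from 24.1 to 15.7 for Mogat1. The WT/KO interval of Dgat1 then ran from 1.35 to 1.75, and the KO/WT interval of Mogat1 from 3.02 to 9.48. Leaving out a replicate could not be tried, since each genotype is a single library. No paired analysis was possible because neither genotype has replicates to pair.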

Other observations

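Beyond triglyceride assembly itself, genes that use or break down its products showed both directions in the same libraries, given as FPKM without replicates. The phospholipid branch held 16 expressed genes (mean FPKM at least 1), of which 8 were lower and 8 higher in KO as deposited. Their median log2 KO/WT was -0.0065. Chka, the choline kinase that starts phosphatidylcholine synthesis, had 29.1 FPKM in WT and 68.1 FPKM in KO and was the 1 gene higher past 1.5-fold. Pcyt1a, the next enzyme of that pathway, had 24.2 FPKM in WT and 15.3 FPKM in KO. Cds2, which draws phosphatidate away from the lipins, had 17.4 FPKM in WT and 11.2 FPKM in KO. Of 8 lipid phosphatases and diacylglycerol kinases that were expressed, 2 were lower past 1.5-fold, Ppap2a (15.1 and 9.28 FPKM) and Ppap2c (19.1 and 11.1 FPKM), and none was higher. These 2, and the 2 of the phospholipid branch that were lower, Cds2 and Pcyt1a, no longer passed with the median of all expressed genes set to 0. As deposited, 19.9% of all expressed genes were lower past 1.5-fold and 4.20% higher.

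Among 10 expressed genes of triglyceride hydrolysis, 2 were lower and 2 higher in KO past 1.5-fold, beside 19.9% and 4.20% of all expressed genes. G0s2, an inhibitor of the lipase Pnpla2, had 12.8 FPKM in WT and 80.1 FPKM in KO, a KO/WT ratio of 6.24 (95% counting interval 5.72 to 6.83). Mgll, the monoacylglycerol lipase, which acts on the substrate of Mogat1, had 25.7 FPKM in WT and 51.7 FPKM in KO. The carboxylesterases Ces1d and Ces1g were lower in KO, at 42.6 FPKM against 112 FPKM and 21.9 FPKM against 74.3 FPKM, and they belong to a family of close paralogs whose reads can be split. Of 9 VLDL assembly genes 8 were higher in KO as deposited, 1 of them past 1.5-fold and 3 with the median of all expressed genes set to 0. The 1 past it as deposited was Apob, with 823 FPKM in WT and 1282 FPKM in KO, and Tm6sf2 was the exception, with 41.3 FPKM in WT and 31.2 FPKM in KO. Some of the 8 were near equal in the libraries. The 95% counting interval of KO/WT was 0.969 to 1.03 for Sar1b and 0.949 to 1.13 for Arfrp1, and each includes 1. Of all expressed genes, 75.6% were lower in KO as deposited. With their median set to 0, 7.40% were higher past 1.5-fold.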
